A study of Mus musculus with 124 samples.

Results

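The liver was examined 18 h after the end of a 6 h sleep deprivation, at the time point labelled T48, in 3 mice (T48S1, T48S3 and T48S4), which are 3 of the 62 liver libraries and of the 124 libraries of the series. T48 counts hours from the start of a baseline day and falls on zeitgeber time (ZT, hours after lights on) 0, so these mice had been through the rest of the light period and a full dark period of recovery. They were compared with the 8 undisturbed liver libraries of ZT0, of which 4 are labelled T0 and 4 T24. All mice were 11 to 12 weeks old, lived in 12 h of light and 12 h of dark with food always available, and carried no stated genetic change. Deprivation was by gentle handling from lights on. Strain and sex are not given in the labels used here. The animal codes name separate mice, so the p-values rest on spread between mice. Those of the fitted model use a spread pooled over all 62 livers, not that of the compared mice alone. The T48 livers all lie in label batch 1, and the controls lie 4 in batch 1 and 4 in batch 2.

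The liver keeps its own circadian clock, in which CLOCK and BMAL1 (gene Arntl) drive the Per, Cry and Nr1d genes, and the proteins of these genes repress that drive in turn. Feeding, body temperature and hormones set the phase of the liver clock, and through it the daily courses of lipid, bile acid and drug metabolism. Sleep deprivation keeps mice awake in their usual rest phase and can change when they eat, how warm they are and how much stress hormone they release. ZT0 is the end of the active and feeding phase of a nocturnal mouse.

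The values are log2 CPM (the logarithm of a gene's share of its library's reads) for 13338 named genes. The sums of the unlogged values ran from 919700 to 1070000 over the liver libraries, and the read depth behind them is not known. The 3 T48 livers were about as alike as the controls: the root mean square difference of a pair over all genes was 0.364 to 0.414 (log2) among them and 0.329 to 0.527 in the 28 pairs of ZT0 controls. Hepatocyte markers such as Alb and Apob dominated every library, with a mean marker level of 11.6 to 11.7 (log2 CPM) at T48 and 11.6 to 11.8 in the controls. One control, T0N3, stood apart from the others: it had the highest value of the 11 libraries for 16.5% of all genes, against 6.22% to 9.39% in the other 7 controls, and 13.7% in T48S4. In bulk tissue, fewer cells of a type and less RNA per cell cannot be told apart.

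Few liver genes differed from the controls past the threshold at T48. Of 13338 genes, 2 passed an adjusted p of 0.05 (limma, Benjamini-Hochberg), which is 0.015%: Apoa4 was higher and Meaf6 was lower. The median difference over all genes was -0.00476 (log2), and 95 genes differed by more than 2-fold in either direction, none of them past the threshold apart from Apoa4. At an unadjusted p of 0.05, 1346 genes differed (10.1%), of which 593 were higher (4.45%) and 753 lower (5.65%). If nothing differed, 666.9 would be expected on average, but single comparisons varied widely about that number. Each set against its own controls, the deprived groups with no gene past the threshold gave 250 (T192) to 1230 (T66). The count was 1204 at T42, where no gene passed either. All 3 T48 livers lay above all 8 controls for 195 genes (1.46%) and below all 8 for 223 (1.67%). The calls rested on the library T48S4: without it no gene passed and 767 genes had an unadjusted p under 0.05, while without T48S3 29 genes passed and without T48S1 1 did.

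**Figure D1:**
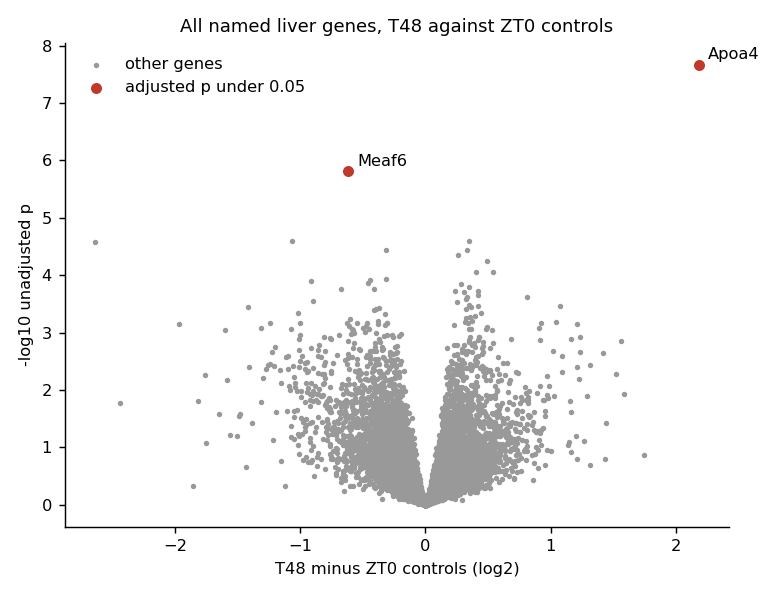
Difference between T48 and the ZT0 controls (log2, x axis) against the unadjusted p on a -log10 scale (y axis), 1 point per named liver gene (n = 13338; 3 livers against 8). The 2 genes past an adjusted p of 0.05, Apoa4 on the right and Meaf6 on the left, are drawn in red and named, and the other genes lie around 0 with a median of -0.00476.

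Apoa4 encodes apolipoprotein A-IV, a secreted lipid-binding protein of chylomicrons and high density lipoprotein that intestine and, in the mouse, liver produce, and that is known to follow lipid supply. It lies on chromosome 9 of GRCm38 at chr9:46240696-46243459 on the plus strand. Its values at T48 were 7.81 in T48S1, 7.67 in T48S3 and 10.51 in T48S4 (log2 CPM). The 8 controls ran from 6.22 through a median of 6.55 to 7.19, so every T48 liver lay above every control. T48S4 had the highest value of all 62 livers, T48S1 the 4th highest and T48S3 the 6th highest. The fitted rise was 2.19 ± 0.33 (log2, SE; 95% interval 1.53 to 2.84), or 4.55-fold, with an adjusted p of 0.000287. An exact permutation test on the values as deposited gave p = 0.00606 (two-sided, 3 against 8), the smallest that these numbers allow. The separation just described, seen upward in 195 genes (1.46%), left this p little room to vary, so it adds nothing to the call. Against the 4 controls of batch 1 alone the difference was 2.26, with an exact permutation p of 0.0286, again the smallest possible and for the same reason.

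The size of the Apoa4 rise depended on 1 mouse. T48S4 stood 3.91 (log2) above the mean of the controls, or 15-fold, and the other 2 livers together stood 1.14 above it, or 2.2-fold. In the fit without T48S4 the rise was 1.26 with an adjusted p of 0.199, and without T48S1 or T48S3 it was 2.61 and 2.68 with the call kept. The SD was 1.6 (log2) in the T48 livers and 0.329 in the controls, while the SE of 0.328 came from the spread pooled over all livers. In a fit of only the 11 libraries compared, the difference was 2.26 with an adjusted p of 0.117.

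The neighbours of Apoa4 in its gene cluster, chosen after the values were seen, had differences near 0, and the contrast with Apoa4 was not tested. Apoa1, the main protein of high density lipoprotein (chr9:46228580-46230466, plus strand), had 12.42, 12.75 and 12.52 at T48, within the controls' 12.25 to 12.89, with a difference of -0.01 ± 0.17. Apoc3, an inhibitor of triglyceride clearance (chr9:46232933-46235636, minus strand), differed by 0.02 ± 0.15. Apoa5, an activator of triglyceride clearance (chr9:46268633-46271919, plus strand), differed by -0.16 ± 0.17. The T48 values of these 3 genes overlapped those of the controls.

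The upstream sequences of the genes that differed, with 1 neighbour of Apoa4 for contrast, are shown because this is where a clock or heat shock site would be looked for first; they are from RefSeq (GRCm38.p6), 5′ to 3′ on the gene's strand. Each ends at the base before the annotated gene start, which for Apoa4 leaves 102 bases of the table's 250. Capitals mark any match on either strand to an E-box (CACGTG), a D-box (TTATGTAA), a ROR and REV-ERB site (TAGGTCA) or a heat shock element (GAANNTTC).
Apoa4, chr9:46240594-46240695, plus strand: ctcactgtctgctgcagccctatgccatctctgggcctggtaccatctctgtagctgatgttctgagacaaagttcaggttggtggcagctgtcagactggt
Apoa5, chr9:46268383-46268632, plus strand: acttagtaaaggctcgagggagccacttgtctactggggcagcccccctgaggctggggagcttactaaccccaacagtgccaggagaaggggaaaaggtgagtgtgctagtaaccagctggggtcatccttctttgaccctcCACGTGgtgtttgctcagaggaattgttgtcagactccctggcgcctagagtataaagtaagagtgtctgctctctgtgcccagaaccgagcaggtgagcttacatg
Meaf6, chr4:125084884-125085133, plus strand: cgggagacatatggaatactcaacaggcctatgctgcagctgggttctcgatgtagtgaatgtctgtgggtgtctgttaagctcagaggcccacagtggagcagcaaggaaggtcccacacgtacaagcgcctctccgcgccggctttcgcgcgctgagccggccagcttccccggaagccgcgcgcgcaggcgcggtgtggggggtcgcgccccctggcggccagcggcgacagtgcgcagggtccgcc
The E-box of Apoa5 starts at base 144 of its window, and the windows of Apoa4 and Meaf6 hold none of the 4 motifs. The 200 bases before Apoa1 held none either and are not shown. Of the 32851 promoters of the table, 6.02% held an E-box, 0.819% a D-box, 2.23% a ROR and REV-ERB site and 6.69% a heat shock element in 250 bases. In the first 102 of these bases, the part farthest from the gene start, the shares were 1.79%, 0.31%, 0.892% and 2.71%. The Apoa4 window lies directly before the annotated start, so its position is not the same. In windows of either length the absence of a match is the usual case. The motifs in the window do not overlap one another, and no match says only that these letters are not there.

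Apoa4 was also above its controls at other recovery times, each set against undisturbed mice of its own time of day, without passing the threshold. The difference was 0.07 after 3 h of deprivation (T27) and 0.34 at its end (T30). It was 1.14 at T36 (adjusted p = 0.053), with values of 7.37, 8.21 and 7.01, and 0.93 at T42 (adjusted p = 0.356), with 8.01, 6.94 and 7.47. After T48 it was 0.58 at T54, 0.52 at T60, 0.64 at T66, 0.36 at T72 and 0.57 at T78, and -0.21 and -0.10 a week after the deprivation (T192 and T198). T48, T72 and T192 share the ZT0 controls, T30, T54, T78 and T198 those of ZT6, T36 and T60 those of ZT12, and T42 and T66 those of ZT18. No difference between T48 and T36 or T42 was tested.

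Meaf6 encodes a subunit shared by several histone acetyltransferase complexes, and lies at chr4:125085134-125113238 on the plus strand. Its values at T48 were 3.05, 3.22 and 2.73, against controls from 3.22 through a median of 3.53 to 3.70. All 3 livers lay below all 8 controls, T48S3 by the narrowest margin, since it and the lowest control agree to 2 decimals. T48S4 was the lowest of all 62 livers, T48S1 the 5th lowest and T48S3 only the 17th lowest. At T72, against the same ZT0 controls, Meaf6 was also lower, by -0.32 ± 0.11, without passing the threshold (adjusted p = 0.734). The fitted fall was -0.62 ± 0.11 (95% interval -0.85 to -0.39), a ratio of 0.651, with an adjusted p of 0.0104. The exact permutation p was 0.00606, the smallest possible for 3 against 8, which follows from the lack of overlap already stated. The batch mattered here: the controls averaged 3.64 ± 0.07 in batch 1 and 3.35 ± 0.11 in batch 2 (SD, n = 4 each), and without a batch term the difference was -0.49 with an adjusted p of 0.21. Against the batch 1 controls alone it was -0.64 with an exact permutation p of 0.0286, which likewise follows from the lack of overlap. Without T48S4 the fit gave -0.49 and an adjusted p of 0.36. The call was also lost without T48S1 (-0.64, adjusted p = 0.0829), with controls labelled T0 only (-0.58, adjusted p = 0.265) and in a fit of only the 11 libraries compared (-0.64, adjusted p = 0.0999). In the cortex of the same mice, whose table was normalised separately, Meaf6 differed by -0.045 ± 0.031 (adjusted p = 0.587).

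**Figure D2:**
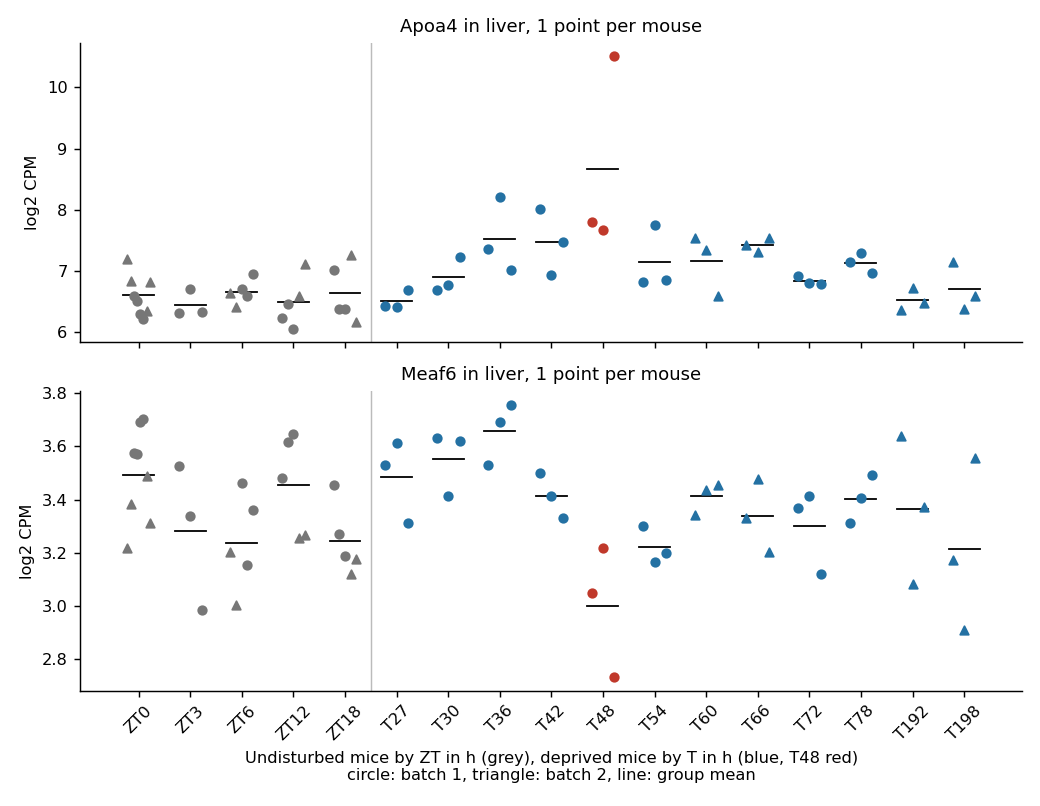
Apoa4 (top) and Meaf6 (bottom) in log2 CPM (y axis), 1 point per liver, for the undisturbed groups by ZT and the deprived groups by T (x axis, hours); circles are batch 1, triangles batch 2 and lines group means. The Apoa4 values of T48 (red) are 7.81, 7.67 and 10.51 against 6.22 to 7.19 at ZT0, and the Meaf6 values of T48 are 3.05, 3.22 and 2.73 against 3.22 to 3.70.

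Of the genes with the next smallest p, 6 are given here, named after their values were seen. They fell just short of the threshold, and in each the T48 livers lay outside the range of the controls. That separation adds little, since the genes were chosen for a small p in this same comparison. Of all genes, 1.46% lay above all controls and 1.67% below. Pcca, the alpha subunit of propionyl-CoA carboxylase, had 6.83, 6.63 and 6.68 against 6.25 to 6.62 in the controls, a difference of 0.34 ± 0.07 (adjusted p = 0.0695). Got2, the mitochondrial aspartate aminotransferase, had 8.68, 8.52 and 8.79 against 8.29 to 8.46, a difference of 0.26 ± 0.06 (adjusted p = 0.0737). Enpp2, which encodes the secreted enzyme autotaxin, differed by 0.49 ± 0.11 (adjusted p = 0.0836). On the low side, Ccni (cyclin I) differed by -0.31 ± 0.07 (adjusted p = 0.0701) and Tle6 by -1.06 ± 0.23 (adjusted p = 0.0695). Scn8a, a sodium channel gene near the lower end of the table, had -4.49, -2.48 and -2.81 against -1.49 to 1.10, a difference of -2.64 ± 0.57 (adjusted p = 0.0695). With T48S3 left out, Pcca, Got2, Ccni, Tle6 and Scn8a all passed the threshold.

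The core clock genes gave no call in liver at T48. Of the 20 measured, 5 were higher and 1 lower at an unadjusted p under 0.05 (25% and 5%, beside 4.45% and 5.65% of all genes), and the median difference was 0.12. The largest difference was in Nr1d1, the REV-ERB alpha repressor, whose transcript climbs steeply in the first hours of light. It had 3.67, 5.38 and 4.6 at T48, against controls from 2.04 through 2.96 to 5.25, and differed by 1.16 ± 0.50 (95% interval 0.16 to 2.17; adjusted p = 0.405). The groups overlapped, since the highest control reached the level of the T48 livers. Nr1d2, its paralogue, had 4.62, 5.08 and 5.05 against 3.61 to 4.99 and differed by 0.67 ± 0.24 (adjusted p = 0.256).

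Of the period genes, Per2 and Per3 lay above all controls at T48 and Per1 did not. Per3 had 2.27, 2.10 and 1.92 against 0.90 to 1.62 and differed by 0.73 ± 0.25 (adjusted p = 0.227). Per2 had 4.53, 4.47 and 5.003 against 3.68 to 4.36 and differed by 0.62 ± 0.29 (adjusted p = 0.453). Tef, an output activator of the D-box, also lay above all 8 controls, at 0.46 ± 0.15 (adjusted p = 0.221). Per1, which also answers to glucocorticoids, overlapped its controls at -0.29 ± 0.45. Cry1, the late repressor of the loop, had 4.32, 4.28 and 4.05 against 3.95 to 5.16 and differed by -0.51 ± 0.21 (adjusted p = 0.394).

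Arntl itself had 5.32, 5.12 and 5.42 at T48 against 5.08 to 5.67, with means as deposited of 5.28 and 5.49. The fitted difference was -0.06 ± 0.36, and its 95% interval (-0.79 to 0.66) spans differences of either sign. The SD was 0.155 in the T48 livers and 0.192 in the controls, while the SE came from the spread pooled over all livers. In the cortex of the same mice 255 of 17108 genes passed the threshold, among them 7 core clock genes. There Arntl differed by -0.39 (adjusted p = 3.18e-05), Dbp by 0.76 (adjusted p = 5.78e-05) and Ciart by 0.78 (adjusted p = 0.0143). Nr1d1 differed by 0.41 (adjusted p = 0.0354) and Nr1d2 by 0.38 (adjusted p = 0.00205) in cortex. Bhlhe41 differed there by 0.43 (adjusted p = 0.00924) and Tef by 0.15 (adjusted p = 0.0408). In liver Dbp differed by 0.42, Ciart by 0.26 and Bhlhe41 by -0.04. The difference between the tissues was not tested. Of the 255 cortex genes 143 were measured in liver, and 14 of these (9.79%) had an unadjusted p under 0.05 there, beside 10.1% of all liver genes.

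**Figure D3:**
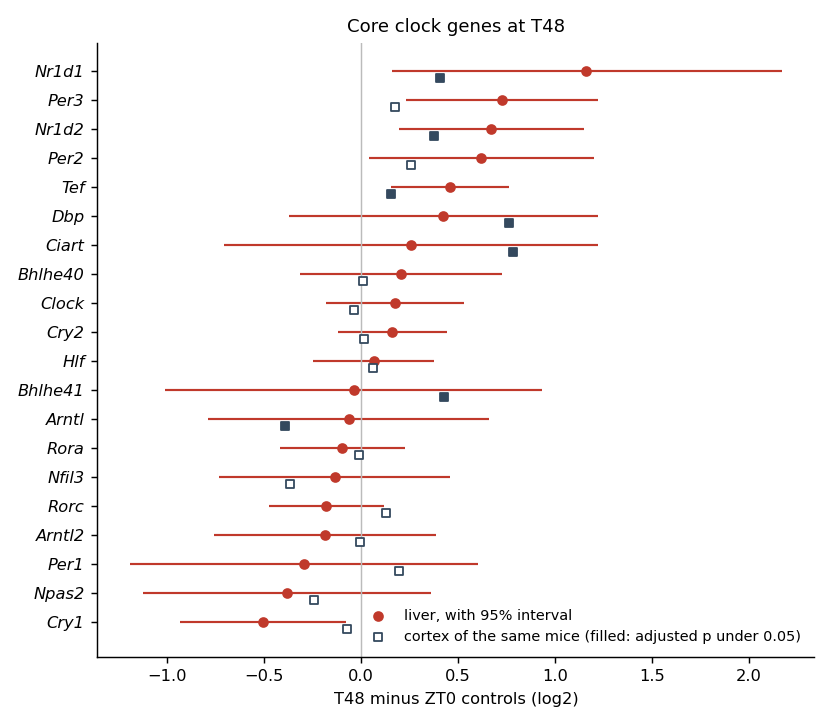
Difference between T48 and the ZT0 controls (log2, x axis) for the 20 core clock genes (y axis, ordered by the liver difference): red points are liver with 95% intervals (3 livers against 8), and squares are cortex of the same mice, filled where the adjusted p is under 0.05. No liver gene passed the threshold, and the liver values run from -0.51 for Cry1 to 1.16 for Nr1d1.

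The 20 output genes of the clock measured in liver held no member with an unadjusted p under 0.05, and their median was 0.05. The member with the smallest p was Fmo5, a flavin monooxygenase, at 0.20 ± 0.11. Undisturbed mice give a reference for time of day that uses no ZT0 library. Of the 1346 genes with an unadjusted p under 0.05 at T48, 506 (37.6%) differed in the direction of ZT3 minus ZT18 in undisturbed livers, beside 6155 of all 13338 genes (46.1%).

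Genes of lipid synthesis had mostly positive differences at T48 as lists, with no member past the threshold and with mean levels that overlapped the controls. All 24 cholesterol synthesis and uptake genes had a positive difference, 8 of them at an unadjusted p under 0.05 (33.3%, beside 4.45% of all genes), with a median of 0.42. The medians of the single T48 livers over these genes ran from 0.00651 to 0.571 above the control mean. T48S4 had the highest value of the 11 libraries in 14 of the 24, T48S1 in 5 and T48S3 in 0. The mean level of the list was 6.82 to 7.33 at T48 and 6.54 to 7.13 in the controls. Sc5d, a late enzyme of the pathway, had the smallest p: 10.09, 9.80 and 10.04 against 9.34 to 9.83, a difference of 0.44 ± 0.17 (adjusted p = 0.331). Genes named beside the member with the smallest p, here and in the lists that follow, were chosen for their roles after the values were seen. Idi1, an isomerase of the pathway, differed by 0.59 ± 0.28, and Srebf2, its regulator, by 0.06 ± 0.13.

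Of 23 lipogenic genes 19 had a positive difference, with a median of 0.37. At an unadjusted p under 0.05, 4 were higher and 1 lower (17.4% and 4.35%, beside 4.45% and 5.65% of all genes). T48S1 had the highest value of the 11 libraries in 9 of the 23, T48S4 in 6 and T48S3 in 0. Thrsp, a nuclear protein that follows carbohydrate feeding, was the most shifted: 9.37, 8.23 and 8.24 at T48, above all controls (6.72 to 8.10), and a difference of 1.32 ± 0.43 (adjusted p = 0.217). Elovl6, an elongase of fatty acids, lay above all controls at 0.61 ± 0.27. Fasn, the fatty acid synthase, had 10.55, 9.71 and 10.61 against 9.06 to 10.04, a difference of 0.74 ± 0.40. Scd1, the main desaturase, went the other way at -0.35 ± 0.28, with 12.01 in T48S4 against 13.68 and 13.37 in the other 2 livers. At T36 the same list had a median of -0.81 against ZT12 controls, with Fasn at -1.83 (adjusted p = 0.00804).

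The other lipid lists were closer to 0. The 32 PPAR alpha and fasting lipid genes had a median of 0.07, which was -0.03 without T48S4, the highest library in 17 of them, and -0.01 without T0N3, the lowest in 20. Hadhb, a subunit of the mitochondrial trifunctional protein, differed by 0.26 ± 0.10 (adjusted p = 0.311). The 24 apolipoprotein and lipoprotein genes had a median of -0.05 with Apoa4 as the single call, and the next largest differences were 0.35 for Apoc2 and -0.45 for Lpl. Among 25 bile acid and sterol transport genes the median was 0.000328. Akr1d1, a reductase of bile acid synthesis, had 8.14, 8.10 and 8.14 against 7.37 to 7.96 (0.40 ± 0.13, adjusted p = 0.216), and Cyp7a1, the rate-limiting enzyme of that synthesis, differed by 0.95 ± 0.42 (adjusted p = 0.424) with 8.40, 7.86 and 7.12 against 6.49 to 7.54.

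Chaperones of the endoplasmic reticulum had positive differences in 24 of 26 genes, with a median of 0.26 and 7 members higher at an unadjusted p under 0.05 (26.9%, beside 4.45% of all genes). T48S4 had the highest value of the 11 libraries in 20 of the 26 and the other T48 livers in none, the control J70N1 had the lowest in 13, and without T48S4 the median was 0.16. P4hb, a protein disulfide isomerase, differed by 0.24 ± 0.09 (adjusted p = 0.289), and Hsp90b1, with 10.02, 10.05 and 10.53 against 9.73 to 10.15, by 0.42 ± 0.17. Hspa5, the main chaperone of that compartment, differed by 0.44 ± 0.24, with 10.80 in T48S4. Of 26 cytosolic heat shock genes 23 were positive with a median of 0.12. T48S4 was the highest library in 16 of them, and without it the median was 0.03. In this list Hspd1, a mitochondrial chaperonin, differed by 0.30 ± 0.09 (adjusted p = 0.208). The 19 integrated stress response genes held no member at an unadjusted p under 0.05, and Atf3, the member with the smallest p, differed by 0.77 ± 0.42.

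**Figure D4:**
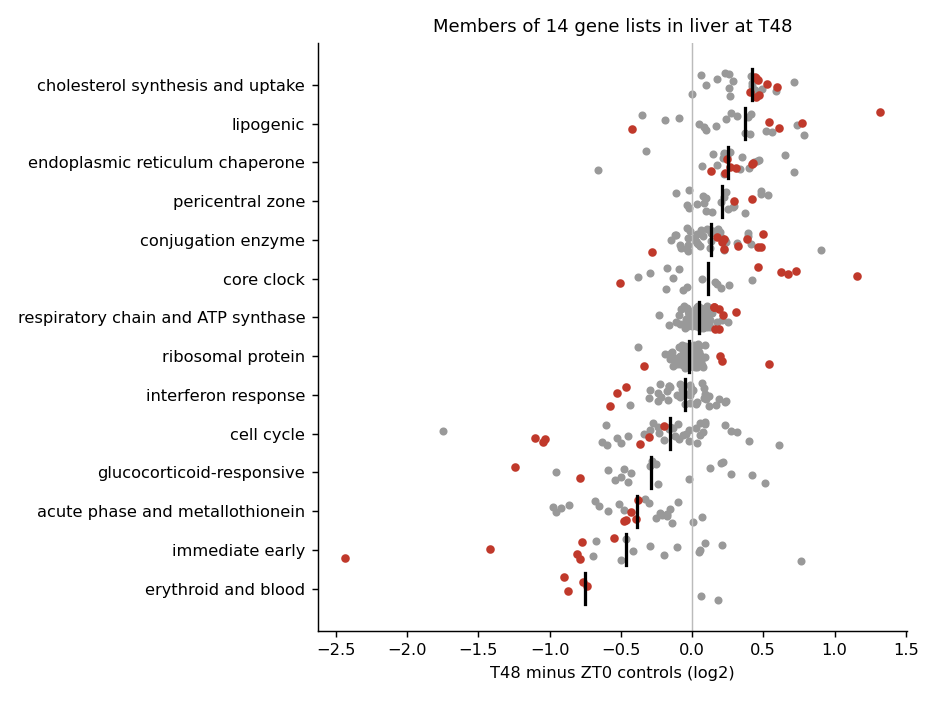
Difference between T48 and the ZT0 controls (log2, x axis) for each measured member of 14 gene lists (y axis); red points have an unadjusted p under 0.05 and black bars are list medians. The medians run from 0.42 for cholesterol synthesis and uptake to -0.75 for erythroid and blood genes, and no member shown passed an adjusted p of 0.05.

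Acute phase genes had lower values at T48 than in the controls, of which 1 was high in nearly all of them. Of 26 acute phase and metallothionein genes 24 had a negative difference, with a median of -0.39, and 5 were lower at an unadjusted p under 0.05 (19.2%, beside 5.65% of all genes). Fgb, the beta chain of fibrinogen, had 11.93, 11.93 and 11.71 against controls from 12.08 through 12.19 to 13.10, a difference of -0.47 ± 0.13 (adjusted p = 0.156). The gamma chain gene Fgg lay below all controls as well, at -0.40 ± 0.13. The control T0N3 had the highest value of the 11 libraries in 24 of the 26 genes and stood 1.16 (median, log2) above the other 7 controls. In T0N3, Saa1, a serum amyloid gene, was at 9.13 where the control median was 4.85. Without T0N3 the list median was -0.13, and with only the controls labelled T0, which do not include T0N3, it was -0.02.

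The immediate early genes, which respond within minutes to stimuli, had a median of -0.47 over 19 measured genes. Of these, 6 were lower at an unadjusted p under 0.05 (31.6%, beside 5.65% of all genes). Junb, a subunit of the AP-1 factor, had 0.74, 1.59 and 0.60 against controls from 1.04 through 2.11 to 3.53, a difference of -1.42 ± 0.37 (adjusted p = 0.143). Egr1 had 2.35, 3.33 and 1.495 against 2.30 to 5.89, a difference of -2.44 ± 0.99 (adjusted p = 0.362). Fos overlapped its controls at -0.70 ± 0.59. T0N3 was the highest library in 8 of the 19 genes, and without it the median was -0.29. The median was -0.11 against the controls labelled T0 and -0.76 against those labelled T24, and against the T24 controls Junb passed the threshold at -2.10 (adjusted p = 0.00419).

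No gene of the lists for fasting and glucocorticoid action passed the threshold. The 20 glucocorticoid-responsive genes had a median of -0.29 and 2 members lower at an unadjusted p under 0.05 (10%, beside 5.65% of all genes). Pck1, the rate-limiting enzyme of gluconeogenesis, had 7.96, 9.16 and 7.51 against 8.42 to 10.12, a difference of -1.24 ± 0.41 (adjusted p = 0.216). Fkbp5, a sensitive target of the glucocorticoid receptor, differed by 0.42. The 23 gluconeogenesis and insulin-responsive genes had a median of 0.03, where Enpp2 had the smallest p.

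Drug metabolism and the zones of the lobule showed small shifts. Of 47 conjugation enzyme genes 9 were higher and 1 lower at an unadjusted p under 0.05 (19.1% and 2.13%, beside 4.45% and 5.65% of all genes), with a median of 0.13, and Gstz1 differed by 0.21 ± 0.07 (adjusted p = 0.216). Of 43 cytochrome P450 genes and regulators 5 were higher and 1 lower (11.6% and 2.33%) with a median of 0.08, and Cyp2c67 differed by 0.45 ± 0.15 (adjusted p = 0.219). The control T0N3 had the lowest value of the 11 libraries in 22 of the 47 conjugation genes and in 18 of the 43 P450 genes, and without it the medians were 0.12 and 0.03. The 22 pericentral genes had a median of 0.21, with Gulo, an enzyme of vitamin C synthesis, at 0.29 ± 0.09 (adjusted p = 0.195). Of them 18 had a positive difference, 2 at an unadjusted p under 0.05 (9.09%, beside 4.45% of all genes). Their mean level was 7.19 to 7.24 at T48 and 6.79 to 7.14 in the controls, where T0N3 was the lowest library in 6 of the genes. The 20 periportal genes had a median of -0.04 with Apoa4 as the single call. The 27 growth hormone and sex-biased genes had a median of -0.03, and Slco1a1 differed by 0.33 ± 0.13.

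Lists of cell growth and protein turnover stayed within 0.16 of 0. The 41 cell cycle genes had the lowest median of these, -0.16, and 6 were lower at an unadjusted p under 0.05 (14.6%, beside 5.65% of all genes). Cdk1, the mitotic kinase, had -0.05, -0.62 and -0.88, below all controls (0.08 to 1.02), and differed by -1.10 ± 0.37 (adjusted p = 0.224). The 79 respiratory chain and ATP synthase genes had a median of 0.05 and 7 members higher at an unadjusted p under 0.05 (8.86%, beside 4.45% of all genes), with T0N3 the lowest library in 25 of the 79 and a median of 0.04 without it. The smallest p was that of Ndufs1 of complex I, with 7.43, 7.26 and 7.42 against 6.84 to 7.26 (0.31 ± 0.08, adjusted p = 0.121). The 84 ribosomal protein genes had a median of -0.02, with Rpl22l1 at 0.54 ± 0.16 (adjusted p = 0.181), and the 77 mitochondrial ribosomal protein genes a median of 0.01, with Mrps27 at 0.33 ± 0.09 (adjusted p = 0.156). Medians were 0.04 for 42 genes of amino acid catabolism and the urea cycle, where Got2 had the smallest p, 0.05 for 42 proteasome genes (Psmd8 0.17), 0.08 for 23 aminoacyl-tRNA synthetases (Nars 0.22) and 0.03 for 60 ribosome biogenesis genes (Npm1 -0.25). They were 0.01 for 40 autophagy genes (Atg2a -0.32), -0.06 for 22 SR splicing factors and CLK kinases (Srsf5 -0.21), 0.00257 for 28 collagen and matrix genes (Col5a3 -0.42), 0.01 for 2 cold-inducible RNA binding genes (Rbm3 0.17) and -0.05 for 41 interferon response genes (Rtp4 -0.46). None of these lists held a call.

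Markers of the other cells of the liver gave no call. The erythroid and blood list had the lowest median of all lists, -0.75 over 6 measured genes. Its 4 globin genes were all lower at an unadjusted p under 0.05 (66.7% of the list, beside 5.65% of all genes). Hbb-bs, an adult beta globin, had 4.93, 4.71 and 4.54 against controls from 5.03 through 5.42 to 6.08 (-0.77 ± 0.30, adjusted p = 0.335), and Hbb-bt differed by -0.90 ± 0.34 (adjusted p = 0.308). Globin genes are near-identical copies, so the split of reads between them is uncertain and they do not count as separate observations. The mean level of the list was 3.73 to 4.03 at T48 and 4.16 to 4.82 in the controls. Alas2, the erythroid enzyme of heme synthesis, differed by 0.18 ± 0.11.

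The remaining marker lists overlapped the controls in mean level. For hepatic stellate cells T48 ran from 4.48 to 4.57 and the controls from 3.89 to 4.5, and the median difference was 0.25 (Nes 0.67 ± 0.32). The medians were 0.29 for Kupffer cells and macrophages (Vsig4 0.49), which was 0.02 without the batch term, 0.28 for sinusoidal endothelium (Lyve1 0.56) and -0.19 for cholangiocytes. In the Kupffer cell and macrophage list the control T0N8 was the highest library in all 12 genes, T0N3 the lowest in 6 and J70N1 in 5. In the endothelial list T0N3 was the lowest library in all 12 genes and T0N8 the highest in 10, and the median was 0.14 without T0N3, 0.32 without T0N8 and 0.13 without the batch term. The medians were -0.04 for hepatocytes (Fgb -0.47) and -0.04 for 7 lymphocyte genes (Ms4a1 0.43). Few markers of neutrophils and of neighbouring tissues were in the table: 1 of 11 neutrophil (Csf3r 0.06), 2 of 15 pancreas (Cela1 0.38), 2 of 9 adipose (Fabp4 0.20) and 1 of 10 muscle and kidney genes (Mylpf -0.59). The part of other cells in the differences above was not tested.

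Genes that had differed at the end of deprivation or early in recovery were followed to T48. These sets were chosen after the values were seen, and their controls share no library with the ZT0 controls. At T36, after 6 h of recovery, 422 liver genes passed the threshold (3.16%). At T48 142 of them (33.6%) had the same direction, and their median difference, taken in the T36 direction, went from 0.52 to -0.08. At T48, 8 of the 422 had an unadjusted p under 0.05 in the T36 direction and 50 in the opposite one, 13.7% in all beside 10.1% of all genes. At the end of deprivation (T30) 2107 genes passed (15.8%). Of these 1030 (48.9%) had the same direction at T48, with a median of -0.00470 against 0.54 at T30. At T48, 103 had an unadjusted p under 0.05 in the same direction and 107 in the opposite one. That is 9.97% in all, beside 10.1% of all genes. The share of all genes with equal sign at both times was not computed for either set.

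The 3 largest rises and falls at T36, gene models without a common name left out, stood as follows at T48. The metallothioneins Mt2 and Mt1, which bind zinc and follow stress hormones, were higher by 3.09 and 2.56 at T36, and at T48 they differed by -0.48 ± 0.66 and -0.59 ± 0.52. Mt1 then had 0.68, 2.32 and 0.22 against controls of 0.38 to 3.72. Pnpla3, a lipid droplet protein induced by feeding, was lower by -3.33 at T36 and differed by 0.40 ± 0.76 at T48, the ion channel gene Hcn3 went from -3.40 to -0.75 ± 0.52, and Bhlha15, a transcription factor gene of secretory cells, from -2.79 to 0.41 ± 0.78. Hapln1, a link protein of the matrix, had the same direction at both times, with 1.99 at T36 and 1.56 ± 0.46 at T48 (adjusted p = 0.181), where its values of 0.46, 0.21 and 0.91 lay above all controls (-1.73 to -0.00379). Erbb4, a receptor tyrosine kinase singled out for its change of sign, went from -2.15 at T36 to 0.94 ± 0.37 at T48 (adjusted p = 0.346), with 2.55, 2.90 and 2.69 against 1.02 to 2.43.

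**Figure D5:**
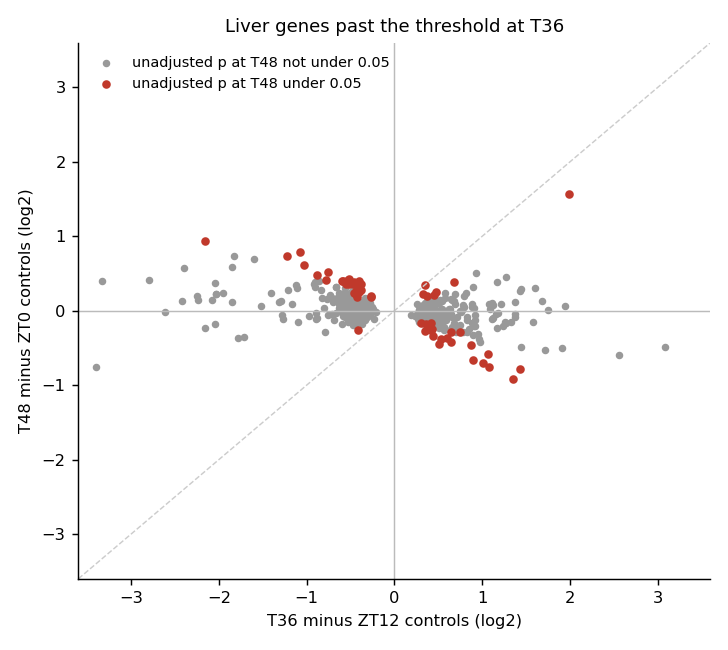
Difference at T36 against ZT12 controls (log2, x axis) and at T48 against ZT0 controls (log2, y axis) for the 422 liver genes past the threshold at T36; red points have an unadjusted p under 0.05 at T48 and the dashed line marks equal differences. The points lie along the horizontal axis, with 142 of the 422 in the 2 quadrants of equal sign and 50 of the red points in the others.

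T48 was also compared with the livers taken at T72, which is 42 h after the end of deprivation and again ZT0, in 3 mice of the same batch, so no control and no batch term enters the difference. Of 13338 genes 5 passed (0.0375%), 4 higher and 1 lower at T48. With the unlabelled factor described under the processing as a covariate none passed, and in a fit of only the 6 libraries compared 1 did. Apoa4, with 6.92, 6.81 and 6.79 at T72, was higher at T48 by 1.82 ± 0.38 (adjusted p = 0.0462). Without T48S4 that difference was 0.90 (adjusted p = 0.318), and with the unlabelled factor as a covariate it was 1.81 (adjusted p = 0.106). Them7, a thioesterase family gene, had 4.26, 4.02 and 4.28 at T48 and 3.55, 3.43 and 3.40 at T72, a difference of 0.73 ± 0.14 (adjusted p = 0.0149). Pcca, with 6.24, 6.24 and 6.45 at T72, was higher by 0.41 ± 0.09 (adjusted p = 0.0485). In each of these genes the groups did not overlap, which adds little, since the genes were chosen by this same comparison. The share of all genes that separate these groups was not counted.

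Stap1, an adaptor protein gene of blood cells, had 1.23, 0.74 and 1.94 at T48 and -0.66, -3.07 and 0.27 at T72, a difference of 2.46 ± 0.50 (adjusted p = 0.0402). The unnamed transcript 2410006H16Rik was lower, with 1.19, 1.41 and 1.31 against 2.63, 2.21 and 2.14 (-1.02 ± 0.19, adjusted p = 0.0149). Against the ZT0 controls Them7 differed by 0.29 at T48 and -0.44 at T72, and Stap1 by 1.23 and -1.23, so in both genes the control level lay between those of the deprived groups. The T72 group was uneven: 356 genes passed without T72S4, and none without T72S2, without T72S3 or without T48S4. Meaf6 differed from T72 by -0.30 ± 0.13 (adjusted p = 0.32).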

How the data were processed

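Liver RNA of 62 mice was sequenced, 1 library per mouse, from stranded polyadenylated RNA per the labels' protocols. The submitters' processing notes name fastp, STAR 2.7.0e and edgeR with GRCm38 (mm10), and say nothing of their settings. The authors deposited 1 table per tissue of log2 CPM values, a unit read from the sums of their antilogs. Counts, depth per library and the treatment of overlapping or near-identical genes are not given in the sources used here, so no counting interval is given, and low values are the least certain. The 35 liver entries without a gene name (0.0337% of the signal) were left out.

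The deposited log2 values had been adjusted beforehand. The liver values lack 2 dimensions, which split the libraries into sets of 50, 8 and 4 that no label explains. All 3 T48 livers and 4 of the 8 ZT0 controls belong to the set of 50. Since the tests take no account of this, they understate p. Adding the sets as a covariate left 2 genes past the threshold at T48.

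Values were tested as deposited, unfiltered and with no pseudocount, in limma 3.58.1 under R 4.3.3 (lmFit, eBayes with a mean trend). One model held all 62 livers, 17 groups and an additive batch term (residual degrees of freedom, 44), which lets groups of 3 borrow the spread of the others. Differences in the text are fitted and include the batch term, while group values are as deposited. Tests were two-sided, adjusted by Benjamini-Hochberg over all genes, threshold 0.05, with no limit on fold change. Medians of single T48 livers are relative to the control mean without the batch term. The called genes were also tested by exact permutation, where their lack of overlap left the p little room to vary. The scripts were tested on simulated data.

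Every called gene, the 20 core clock genes, and from each of 43 gene lists the called member or else the one with the smallest p were named, except a few genes that are not reported here. The time point, the members and the lists were chosen with earlier results of these data known. Gene positions are from GENCODE (GRCm38), and upstream sequences from RefSeq, which had an entry for 10099 of the liver genes. Alternatives were other covariates, control subsets, scalings, a filter, other moderation and leaving out single libraries. Cortex values serve only to stand beside those of liver. Figures were drawn with matplotlib 3.10.9.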

Additional observations from a re-analysis of the deposited data

Results flagged for a closer look

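Among the 69 named genes, 6 had 1 ZT0 control far from the other 7 by Dixon's criterion, where chance gives about 1 group in 20. Of these, 5 came from the same control, T0N3: Fgb at 13.10 log2 CPM (others 12.08 to 12.33), Cyp2c67 at 7.82 (others 8.36 to 8.59), Nes at 0.66 (others 1.79 to 2.47), Clock at 6.35 (others 6.69 to 6.97) and Bhlhe41 at -0.29 (others -2.34 to -1.41). The sixth was Arntl in T0N9 at 5.08 (others 5.4 to 5.67). Groups of 3, T48 among them, were not examined in this way.

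A test of T48 against T72 set apart 5 genes: Apoa4 (1.82), Them7 (0.728), Stap1 (2.46), Pcca (0.405) and 2410006H16Rik (-1.02), all T48 minus T72 on the log2 scale.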

How the results depend on the processing

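The number of genes past the threshold at T48 against the ZT0 controls, 2 in the text, was 2 or 3 under both other scalings, log2(CPM + 1), the filter, other moderation, no batch term, and the unlabelled factor as a covariate. With no batch term the genes were not the same: Meaf6 lost its call (-0.49, adjusted p = 0.21) and Scn8a gained one (-2.78, adjusted p = 0.0313). The count was 6 with batch 1 controls only, 12 with controls labelled T24 only and 1 with those labelled T0 only. It was 0 in a fit of only the 11 libraries compared (1623 genes at an unadjusted p under 0.05 there), and 1 with the unlabelled factor and no batch term, a setting chosen after seeing the data. With 1 library left out it was 0 (without T48S4) to 29 (without T48S3), and 2 whichever single control was left out. The cause was not tested.

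The number for T48 against T72, 5 in the text, was 11 with quantile normalization. It was 3 with controls labelled T0 only and with robust moderation, and 2 with batch 1 controls only, with controls labelled T24 only, with log2(CPM + 1) and with no mean trend. It was 1 with only the 6 libraries compared, and 0 with the unlabelled factor as a covariate, with or without the batch term (1395 and 1409 genes at an unadjusted p under 0.05). Leaving out single livers gave 0 to 356. The cause was not tested.

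Of 1645 values of named genes under the alternatives none changed sign after a call, 13 gained a call, 8 lost one and 50 moved by more than 1 SD. Of 1030 list medians 62 moved by more than the spread of the T48 livers. Among the genes of the T72 comparison 51 of 94 values lost the call. No paired analysis was possible because the replicate labels are animal codes and the groups compared are different mice.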
